A study of Mus musculus with 6 samples.

Results

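The genes described here are the chemokine, interleukin, colony-stimulating factor and TNF superfamily ligands of mouse renal cortex. They were chosen by symbol, with earlier results of these data known. Their array probes were named for a Ccl, Cxcl, Cx3cl or Xcl chemokine, an interleukin, Csf1 to Csf3, Lif, Mif, Tnf or a Tnfsf ligand. The symbols gave 83 genes of the 37074 named on the array, read by 125 of its 56605 probes. The pattern also matched 7 probes for 4 receptor genes (Il7r, Il9r, Il21r and Il23r), which are not ligands and were left out.

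Gene expression was measured on one-colour Agilent arrays in 6 male mice aged 16 weeks, 3 labelled db/m and 3 labelled db/db, with 1 array per labelled sample. Db/db mice of the C57BLKS/J strain carry a mutation in both copies of the leptin receptor gene and become obese and diabetic, and db/m mice are their non-diabetic controls. The paper and the design text describe these arrays instead as db/db mice with and without 8 weeks of HQD (Huangqi decoction, a herbal formula), and the labels state the 8 weeks of HQD for the samples of both groups without a dose. These descriptions could not be reconciled, so the groups are called by their labels. Each difference is given in log2 units as the mean of labelled db/m less that of labelled db/db. The paper describes 3 mice per group, and the p-values measure the spread between these 6 samples.

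Chemokines are small secreted proteins that draw leukocytes along a gradient by binding G protein-coupled receptors. Interleukins and colony-stimulating factors control the growth, survival and activation of leukocytes, mostly through JAK-STAT signalling, while the ligands of the TNF superfamily act through receptors that lead to NF-kB activation or to cell death. In the kidney they are made by tubular epithelium, endothelium and podocytes as well as by leukocytes, and many are known for their roles in diabetic and inflammatory kidney disease.

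All 10 markers of kidney cortex cells, such as Lrp2 of the proximal tubule and Nphs1 of podocytes, were well above background on all 6 arrays. Of these 10, 8 had negative differences, 1 of them (Slc12a3) with an unadjusted p under 0.05, and their median difference was -0.17. Their summed linear signal, relative to the 75th percentile of each array, ranged from 827 to 957 in labelled db/m and from 958 to 1050 in labelled db/db, apart by a narrow gap. From 51.6% to 59.0% of all probes were well above background on each array, by the scanner software's flag. Each array holds RNA of whole tissue, so that fewer cells of a type and less RNA per cell cannot be told apart. Of 10 leukocyte and myeloid markers, 9 were higher in labelled db/m, 6 of them with an unadjusted p under 0.05 by limma, against 6.67% of all tested genes (9.18% were lower). Their summed signal ranged from 42.0 to 63.1 in labelled db/m and from 29.8 to 37.1 in labelled db/db, without overlap. The probe of Itgam holds a 16-base run found in 148 promoter windows of RefSeq, and without it the sum ranged from 26.6 to 39.7 against 19.1 to 24.8, with 5 of 9 markers at the unadjusted threshold. Of 4 neutrophil markers, 3 were tested. All 3 had positive differences and none reached the unadjusted threshold, with a summed signal from 3.37 to 7.35 against 1.92 to 4.37. The summed signals of T and NK cell markers (6.94 to 7.99 against 5.13 to 10.6) and of B and plasma cell markers (0.326 to 1.3 against 0.286 to 0.68) overlapped, and Cd3g, Cd8a, Klrb1c and Cd79a were on no array well above background. The part of these cells in the differences of the ligands was not tested.

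Most ligand genes gave little signal in this tissue. A probe was well above background on all 6 arrays for 28 of the 83 genes (33.7%), and on no array for 34 (41.0%). Of all named genes on the array, 51.5% cleared background on all 6 arrays and 33.7% on none. Those on no array well above background included Il6, Il1a, Il4, Il5, Il7, Il12a, Il12b, Il23a, Cxcl5, Cxcl9, Ccl7, Ccl11, Csf2, Csf3 and Tnfsf11. Of the larger families, 6 of 13 CXC chemokines, 5 of 11 TNF superfamily ligands and 6 of 19 CC chemokines cleared background on all 6 arrays. Within the common gamma chain and type 2 cytokines only Il15 was above background on all 6 arrays, of 10 genes. Counted by array, 51, 46 and 56 ligand probes cleared background in labelled db/m and 48, 43 and 53 in labelled db/db. The groups overlapped, and their means were 51.0 ± 5.0 and 48.0 ± 5.0 (SD, n = 3; exact two-sided permutation test, p = 0.5, where 3 against 3 arrays cannot give less than 0.1).

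**Figure D1:**
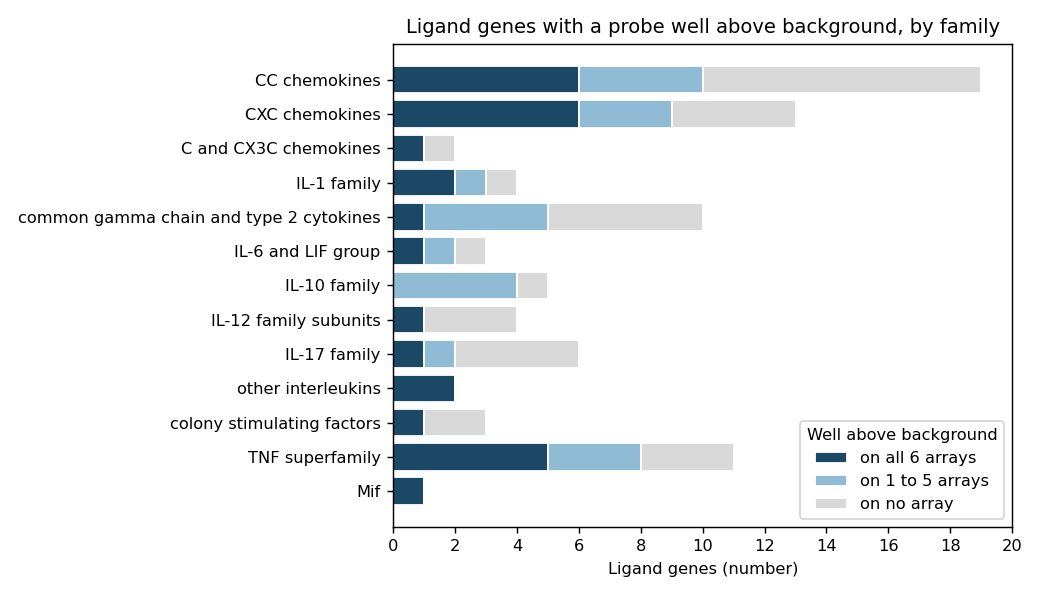
Number of ligand genes of each family (horizontal axis) with a probe well above background on all 6 arrays, on 1 to 5 arrays or on no array. Both other interleukins (Il16 and Il34) and Mif were above background on all 6 arrays, and 9 of the 19 CC chemokines were above it on none.

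The test took the probes that cleared background on every array of 1 group or of both, which 46 of the 125 ligand probes (36.8%) and 52.9% of all probes did. These 46 probes stand for 33 genes, and the remaining 50 genes have no tested probe. An unadjusted p under 0.05 by limma was reached by 5 of the 46 as higher in labelled db/m, against 6.9% of all 29890 tested probes, and by 4 as lower, against 10.8%. Among these, the Il21 probe and 1 Il33 probe were below background on every array of the group where they were dim and were tested only through the other group. The filter fixed their direction, so their p-values are no independent test, and without them 4 of 44 probes were higher and 3 lower. With the groups apart without overlap, 3 were higher, against 7.75% of all tested probes, and 4 lower, against 16.4%. Among these, Il21 and a Csf1 probe (higher) and the same Il33 probe (lower) passed the filter only through the group where they are high. Their separation is no independent test either. No ligand probe changed at least 2-fold with an unadjusted p under 0.05, which 0.96% of all tested probes did. None passed a Benjamini-Hochberg adjusted p of 0.05, as none of all tested probes did (0.0%), and the lowest adjusted p among the ligands was 0.24. Removal of labelled db/m replicate 2 brought that value to 0.0501, and removal of labelled db/db replicate 3 brought it to 0.0876. By the brightest tested probe of each gene, 3 of the 33 genes were higher at the unadjusted threshold (Ccl2, Il21 and Il34) and 1 was lower (Ccl6), against 6.67% and 9.18% of all tested genes. Without Il21 it was 2 of 32 higher and 1 lower. The unadjusted p-values below therefore rank the ligands and do not pass a test across all probes.

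The median difference of the 46 ligand probes was 0.11, and that of all tested probes was -0.03. Under median centring of the arrays both medians fell, to -0.08 for the ligands and -0.21 for all tested probes. The sign of the ligands' median therefore depends on the scaling. Median centring moves the differences of all probes alike, so the distance between the medians, 0.134, could not change. Median centring also turned the split of ligand probes at the unadjusted threshold from 5 higher and 4 lower to 2 higher and 9 lower. The shares of all tested probes above (6.9% and 10.8%) hold for the main scaling, and those under median centring are not given. The same shift acts on all probes, so the new split is no result about the ligands. It ended 4 calls (Il21, both Il34 probes and 1 Cxcl11 probe) and added 6, which were the tested probes of Il18, Ccl17 and Lif and 1 probe each of Il33, Mif and Cxcl16. Of these 6, Ccl17 and Lif passed the filter only through the group where they are high, so their calls are no independent test. Lif is counted in the 2 higher, and Ccl17 and the Il33 probe tested only through labelled db/db in the 9 lower. Dim probes tended to be higher in labelled db/m and bright probes lower: of the 25% of tested probes with the lowest mean signal, 14.2% were higher at the unadjusted threshold, and of the brightest 25%, 1.85% were. The ligands lay toward the dim side, with 18 of the 46 probes among the dimmest 25%, where their median difference was 0.26 against 0.16 for all probes. In the other 3 groups of signal, from dim to bright, the medians of the ligands were 0.15, 0.01 and 0.03, against 0.04, -0.06 and -0.14.

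**Figure D2:**
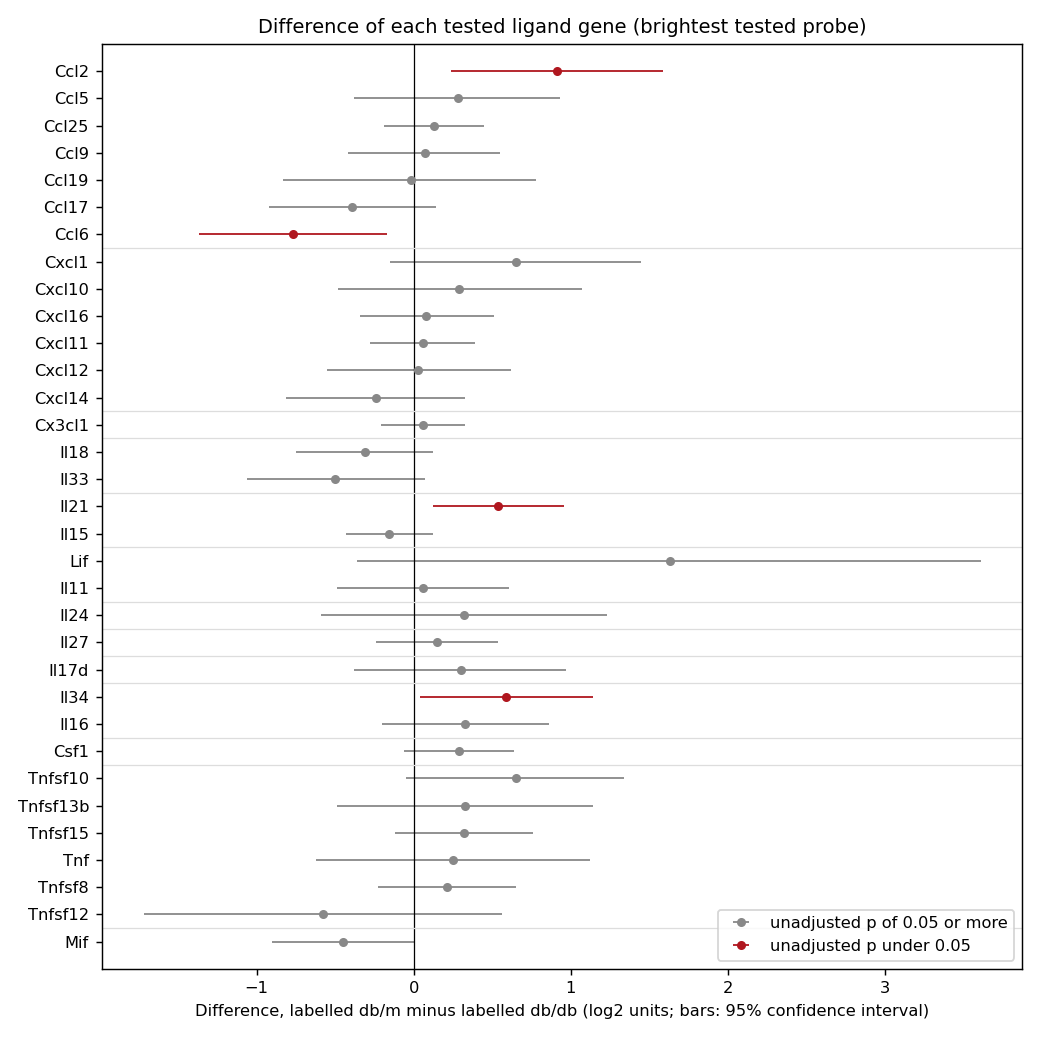
Difference of each of the 33 tested ligand genes by its brightest tested probe (points, log2 units) with the 95% confidence interval (bars), ordered by family. The intervals of Ccl2, Il21 and Il34 lie above 0 and that of Ccl6 lies below it. The interval of Lif, from -0.36 to 3.61, is the widest shown.

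Among the CC chemokines, which mostly attract monocytes and lymphocytes, 7 of 19 genes were tested. Ccl2, the main chemoattractant of monocytes and a chemokine long followed in diabetic kidney disease, had the largest difference. The Ccl2 probe, on chr11:81850650-81850709 (mm9), is given by its first 30 bases, since this is the ligand with the largest difference among those at the unadjusted threshold.
Ccl2: tgtaggagtgaccagtgtgacagtgaacta
Its log2 signal was -2.18, -2.22 and -1.57 on the labelled db/m arrays, relative to the 75th percentile of each array, and -3.39, -2.44 and -2.87 on the labelled db/db arrays. Every labelled db/m array was above every labelled db/db array. The difference was 0.91 ± 0.28 (SE, n = 3 per group), or 1.88-fold, with an unadjusted p of 0.0152 and an adjusted p of 0.24 by limma. It stayed at the unadjusted threshold without each array in turn, where p was from 0.00655 to 0.0489 and the difference from 0.67 to 1.14. On the slide that held an array of each group the difference was 0.70. The limma fit with slide as a block, which rests on that slide, ended the call (unadjusted p = 0.252). A test of the group means for each probe alone, outside limma, ended it too.

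Ccl6, a chemokine of rodents that attracts macrophages, went the other way. Its signal was -0.77, 0.13 and -0.14 in labelled db/m and 0.66, 0.64 and 0.22 in labelled db/db. The groups were apart, although the highest labelled db/m array and the lowest labelled db/db array were close. The difference was -0.77 ± 0.25, with an unadjusted p of 0.0197 and an adjusted p of 0.244. Without labelled db/db replicate 1 or 2 the p was over 0.05, up to 0.0651, and the test outside limma ended the call. Without labelled db/m replicate 1 the difference was -0.51.

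The other tested CC chemokines did not reach the unadjusted threshold. Ccl5, which attracts T cells and monocytes, had -1.90, -0.90 and -1.68 in labelled db/m and -2.06, -1.65 and -1.61 in labelled db/db. Its groups overlapped (difference 0.28 ± 0.27, unadjusted p = 0.346), and the difference was -0.29 on the shared slide. Ccl25, known for guiding lymphocytes to the gut and thymus, differed by 0.13 ± 0.14 (unadjusted p = 0.37) on its brighter probe and by 0.15 ± 0.15 on a dimmer one. The remaining 3, Ccl9, Ccl17 and Ccl19, had differences of 0.07, -0.39 and -0.02, and under median centring Ccl17 reached the threshold at -0.58 (unadjusted p = 0.0379 by limma). Ccl17 passed the filter only through labelled db/db, where it is high, so the filter partly fixed that p. With dim arrays set to the lowest signal above background the difference of Ccl17 was -0.28.

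Of the 13 CXC chemokines 6 were tested, and none reached the unadjusted threshold on its brightest probe. Cxcl16, which exists as a membrane-bound scavenger receptor and as a soluble ligand of Cxcr6, has 2 probes whose differences had opposite signs at this scaling, and so both are shown by their first 30 bases. The first lies on chr11:70269481-70269540 and the second on chr11:70267780-70267839 (mm9).
Cxcl16, first probe: gttttcaccaccaaaaacatttgcctcaag
Cxcl16, second probe: tgtaaagttctaggttcaaccctcccacta
The first probe read 0.35, -0.13 and 0.36 in labelled db/m and 0.58, 0.48 and 0.34 in labelled db/db. Its groups overlapped, with a difference of -0.28 ± 0.16 (95% confidence interval -0.67 to 0.12, unadjusted p = 0.139). The second and brighter probe read 0.68, 0.25 and 0.86 in labelled db/m and 0.62, 0.54 and 0.37 in labelled db/db. It also overlapped, with a difference of 0.08 ± 0.18 (95% confidence interval -0.34 to 0.51, unadjusted p = 0.651). Under median centring both differences were negative (-0.46 and -0.10), and the first passed the threshold by limma (unadjusted p = 0.041). On the shared slide neither was negative (0.01 and 0.31).

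Cxcl11, a ligand of Cxcr3 induced by interferon, has 2 probes with strong signal. They are shown because a stretch of the brighter one, in capitals, recurs in the promoters of many other genes. The capitals mark the 16-base run of each probe that is found, on either strand, in the largest number of 32851 RefSeq promoter windows (GRCm38.p6).
Cxcl11, brighter probe: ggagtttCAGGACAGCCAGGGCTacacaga
Cxcl11, dimmer probe: cttgaaaGGCAGAGGCAGGAGGAtctcttg
The run of the brighter probe was in 24 windows and that of the dimmer probe in 3. A run in at least 10 windows was held by 1.2% of all probes on the array and by 1 of the 125 ligand probes, this one. The brighter probe, on chr5:92788567-92788626 (mm9), differed by 0.06 ± 0.14 (unadjusted p = 0.706). The dimmer probe, on chr5:92788640-92788699, read 3.42, 2.96 and 3.34 in labelled db/m and 2.64, 2.45 and 3.11 in labelled db/db. The groups overlapped by 1 array on each side, and the difference was 0.51 ± 0.21 (unadjusted p = 0.0474, adjusted p = 0.28). Without labelled db/db replicate 2 that p was 0.152, and the threshold was reached in 9 of 17 alternatives. Whether either probe reads the Cxcl11 transcript alone was not tested.

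Cxcl12, the homeostatic ligand of Cxcr4 that is made by stroma and podocytes, differed by 0.03 ± 0.25 and -0.06 ± 0.23 on its 2 probes. Cxcl10, another interferon-induced ligand of Cxcr3, read -0.16, 0.91 and 0.63 in labelled db/m and -0.15, 0.65 and -0.00 in labelled db/db. Its groups overlapped almost fully (difference 0.29 ± 0.33, unadjusted p = 0.398). Cxcl14, a chemokine of epithelia, differed by -0.24 ± 0.24 (unadjusted p = 0.355). Leaving out 1 array moved that difference between -0.5 and -0.08, with an unadjusted p from 0.0262 (without labelled db/m replicate 3) to 0.771 by limma. Cxcl1, which attracts neutrophils through Cxcr2, differed by 0.65 ± 0.34 (unadjusted p = 0.0958). Its difference ran from 0.36 to 0.91 without each array in turn, and its unadjusted limma p from 0.0337 to 0.288. Cx3cl1 (fractalkine), a membrane-anchored chemokine of endothelium and epithelium, was nearly the same on all arrays by its brighter probe. That probe differed by 0.06 ± 0.11, with a 95% confidence interval from -0.21 to 0.33. The other Cx3cl1 probe was not tested. It read -4.32, -4.36 and -5.43 in labelled db/m, well above background on no array. In labelled db/db it read -2.75, -4.32 and -1.95, well above background on 2.

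Of the IL-1 family, whose members are released mainly from stressed or dying cells, 2 of 4 genes were tested and both had negative differences. Il33, a nuclear alarmin of endothelium and stroma that acts through Il1rl1, has 2 tested probes, shown by their first 30 bases because they differ in what they cover. The first spans 2268 bases of the genome (chr19:30024240-30026507, mm9) with its 60 bases, as a probe across a splice junction does. The second lies in 1 block, on chr19:30035101-30035160.
Il33, junction probe: cgccttgcaaaataagaagatcccaacaga
Il33, second probe: gtgaatctgtacgatatctttaaagtagta
The junction probe read -4.11, -4.08 and -4.44 in labelled db/m, where it was on no array well above background, and -3.34, -3.45 and -3.73 in labelled db/db, where it was so on all 3. Its difference was -0.70 ± 0.16 (unadjusted p = 0.0033, adjusted p = 0.24). Since it was tested only through labelled db/db, where it is high, the filter partly fixed that p. With the labelled db/m arrays raised to the lowest signal above background on each array, its level was 1.48-fold lower in labelled db/m. The p was from 0.00219 to 0.0146 without each array in turn. With slide as a block in limma the difference was -0.37 and the call was lost (unadjusted p = 0.189). The second probe read -0.99, -0.14 and -0.47 against -0.11, 0.22 and -0.22. Its groups overlapped (difference -0.50 ± 0.24, unadjusted p = 0.0747), and under median centring its limma p was 0.0178. Without labelled db/m replicate 1 its difference was -0.27, and without labelled db/db replicate 2 its unadjusted p was 0.217 by limma. The receptor gene Il1rl1 was on no array well above background.

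Il18, an inflammasome product of tubular cells and macrophages, differed by -0.31 ± 0.18 (unadjusted p = 0.128), with overlapping groups. Under median centring it was at the threshold, with a difference of -0.50 (unadjusted p = 0.0426 by limma). Without labelled db/m replicate 1 its difference was -0.15 (unadjusted p = 0.381 by limma). Il1b, the classical product of the inflammasome, was not tested. Its brightest probe was well above background on 2 labelled db/m arrays and 1 labelled db/db array, with values from -4.02 to -3.10 in labelled db/m and from -4.57 to -3.87 in labelled db/db. Il6 was on no array well above background by either of its probes.

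Among the cytokines that signal through the common gamma chain, Il21 and Il15 were tested. Il21, a product of activated CD4 T cells that drives B cells, was read by 1 of its 2 probes, on chr3:37124300-37124359 (mm9), shown by its first 30 bases because its whole difference lies at the edge of detection.
Il21: aaatgcatttctttcacttccatgttgtgt
It read -3.60, -3.61 and -4.04 in labelled db/m, well above background on all 3 arrays, and -4.12, -4.54 and -4.22 in labelled db/db, on none. The groups were apart by less than the range within either group. The difference was 0.54 ± 0.18 (unadjusted p = 0.0192, adjusted p = 0.244). With the dim arrays raised to the lowest signal above background on each array, the level was 1.15-fold higher in labelled db/m. It was tested only through labelled db/m, where it is high, so that p too was partly fixed by the filter. With dim arrays set to the lowest signal above background the difference was 0.20 and no longer at the unadjusted threshold. The other Il21 probe was on no array well above background. Of the 8 markers of T and NK cells 4 cleared background on all 6 arrays, and none of the 5 tested reached the unadjusted threshold.

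Il15, which keeps natural killer and memory T cells alive and is also made by tubular cells, had 3 tested probes, all with negative differences, though the dimmest turned positive without labelled db/db replicate 1 (0.06) and also after removal of labelled db/m replicate 1. The probe on chr8:84855813-84855872 (mm9) read 1.03, 1.22 and 1.0 in labelled db/m and 1.45, 1.35 and 1.35 in labelled db/db, without overlap. Its difference was -0.29 ± 0.11 (unadjusted p = 0.0329). The call was kept in 1 of 6 limma fits that left out an array (unadjusted p up to 0.119). It was also lost under quantile normalization (unadjusted p = 0.0582 by limma) and with the deposited matrix. The brightest probe differed by -0.16 ± 0.12 (unadjusted p = 0.218) and the third by -0.09 ± 0.18, both with overlapping groups.

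Il34 and Csf1 are the 2 ligands of the macrophage receptor Csf1r, and both are made by tubular cells. Il34 was read by 2 probes on chr8:113265835-113265894 and chr8:113266547-113266606 (mm9), shown by their first 30 bases because they gave nearly the same difference from separate stretches of the gene.
Il34, first probe: aagaacgacggggtgcctcctaggatccca
Il34, second probe: tgcggcccaaagccttgctggacaactgct
The first read 0.86, 0.00 and 0.65 in labelled db/m and 0.08, -0.24 and -0.10 in labelled db/db. The second read -1.47, -2.41 and -1.75 against -2.28, -2.64 and -2.51. On both, labelled db/m replicate 2 lay within the range of labelled db/db and the other labelled db/m arrays lay above it. The differences were 0.59 ± 0.23 (unadjusted p = 0.039, adjusted p = 0.269) and 0.60 ± 0.25 (unadjusted p = 0.0476, adjusted p = 0.28). Without labelled db/m replicate 2 the p of the first was 0.00159, and without labelled db/m replicate 1 it was 0.117. Median centring ended both calls, with differences of 0.40 (unadjusted p = 0.102 by limma) and 0.41 (unadjusted p = 0.106 by limma). The test outside limma ended both too, and quantile normalization ended that of the second (unadjusted p = 0.104 by limma). The 2 probes share the same RNA and are not independent measurements of a mouse.

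Csf1 read -0.09, -0.46 and 0.03 in labelled db/m on its brightest probe, and -0.46, -0.44 and -0.49 in labelled db/db. The groups touched at the lowest labelled db/m array (difference 0.29 ± 0.15, unadjusted p = 0.0879). Its 2 dimmer probes differed by 0.34 ± 0.16 and -0.06 ± 0.23. Il16, a leukocyte attractant that binds CD4, differed by 0.33 ± 0.22 (unadjusted p = 0.186). Without each array in turn the difference of Il16 ran from 0.2 to 0.58, and on the shared slide it was -0.1. Without labelled db/db replicate 3 its unadjusted p was 0.00581 by limma.

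**Figure D3:**
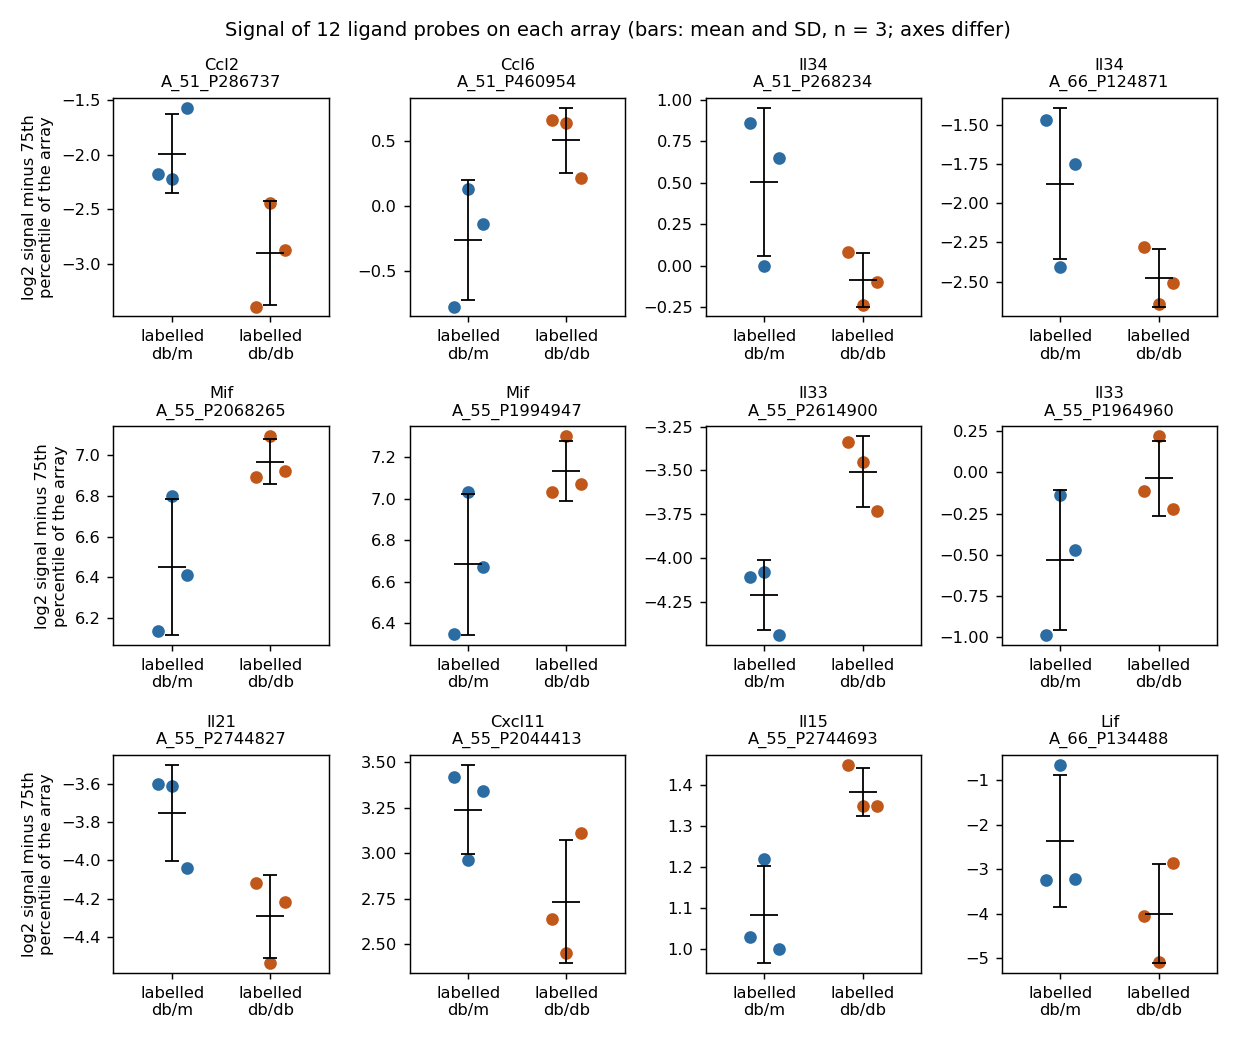
Log2 signal relative to the 75th percentile of the array (vertical axes, which differ) of 12 ligand probes on each of the 3 labelled db/m and 3 labelled db/db arrays (points), with the mean and SD. The groups of Ccl2, Ccl6, the first Mif probe shown, the first Il33 probe shown, Il21 and the Il15 probe are apart, and the Lif panel shows 1 labelled db/m array at -0.65 above the rest.

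Mif, an abundant cytokine of tubular epithelium that binds Cd74, has 2 probes of 10 spots each, averaged here, and RefSeq lists 3 genes named as Mif pseudogenes, whose RNA the probes were not tested for. Both probes are placed on chr10 within 75322094 to 75322153 (mm9). One read 6.14, 6.80 and 6.41 in labelled db/m and 6.89, 7.09 and 6.92 in labelled db/db, without overlap. Its difference was -0.52 ± 0.18 (unadjusted p = 0.0255, adjusted p = 0.248). The other read 6.35, 7.03 and 6.67 against 7.03, 7.30 and 7.07, and its groups met at 7.03 (difference -0.45 ± 0.19, unadjusted p = 0.0513). Without labelled db/db replicate 2 the p-values were 0.0825 and 0.152.

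Of the 11 TNF superfamily ligands 6 were tested and none reached the unadjusted threshold. Tnf itself, the founding pro-inflammatory ligand, was read by 1 of its 2 probes, and the other was on no array well above background. The tested probe read -1.18, -1.09 and -1.59 in labelled db/m and -1.99, -1.94 and -0.67 in labelled db/db. Labelled db/db replicate 3 had the highest value of all, and the groups overlapped (difference 0.25 ± 0.37, unadjusted p = 0.519). Without that array the difference was 0.68 with a p of 0.00979, and on the shared slide, which holds it, the difference was -0.51. Tnfsf13b (BAFF), a survival factor of B cells, differed by 0.33 ± 0.34 (unadjusted p = 0.37) on its brightest tested probe, which was well above background on 1 labelled db/db array. Of its other probes 1 cleared background on 1 labelled db/m and 2 labelled db/db arrays, and the other on none.

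Tnfsf10 (TRAIL), which can trigger cell death through Tnfrsf10b, has 2 probes with unequal differences. They lie on chr3:27238508-27238567 and chr3:27241288-27241347 (mm9) and are shown because the second is made of 4 copies of a 15-base unit, of which 1 copy is in capitals.
Tnfsf10, first probe: gggaaatgttaaactttgtaaactctgaaa
Tnfsf10, second probe: AGCGCCCCTGACAACagcgcccctgacaac
The first probe read 1.32, 0.29 and 1.36 in labelled db/m and 0.19, 0.35 and 0.48 in labelled db/db. Labelled db/m replicate 2 lay among the labelled db/db arrays and the other labelled db/m arrays lay well above them (difference 0.65 ± 0.29, unadjusted p = 0.0626). Without that array the difference was 1.0 with a p of 0.000385. The repeat probe differed by 0.08 ± 0.15 (unadjusted p = 0.618). Of the others, Tnfsf8 and Tnfsf15 differed by 0.21 and 0.32 and Tnfsf12 (TWEAK) by -0.58 ± 0.48, where labelled db/db replicate 3 alone read -1.33 and the other 5 arrays from -3.55 to -2.62. Without that array the difference of Tnfsf12 was -0.04. With slide as a block in limma, which rests on a slide that holds that array, it was -2.22 (unadjusted p = 8.98e-05).

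Lif, a cytokine of the IL-6 group that signals through Lifr and Il6st, had the largest fitted difference of all tested ligands, but cleared background on only 1 labelled db/db array. It and Tnfsf12 were chosen for mention after their values were seen. It read -3.23, -0.65 and -3.22 in labelled db/m and -4.04, -5.09 and -2.85 in labelled db/db. The groups overlapped (difference 1.63 ± 0.83, unadjusted p = 0.0937), and with dim arrays set to the lowest signal above background the difference was 1.13. Under median centring the difference was 1.44 (unadjusted p = 0.037 by limma). Without labelled db/m replicate 2 it was 0.77, and on the shared slide it was -0.38. Lif passed the filter only through labelled db/m, where it is high, so its p-values are no independent test. Il11, of the same group, differed by 0.06 ± 0.23. The single tested members of the IL-10, IL-12 and IL-17 families (Il24, Il27 and Il17d) differed by 0.32, 0.15 and 0.30, each with overlapping groups and an unadjusted p of 0.331 or more.

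Slides held 2 arrays each, and 1 slide held an array of each group, namely replicate 1 of labelled db/m with replicate 3 of labelled db/db. On that slide alone, which is also what a fit with slide as a block rests on, the median difference of the ligand probes was -0.177, against -0.042 for all tested probes. The 9 ligand probes at the unadjusted threshold kept their direction there, but with slide as a block 5 of them lost that threshold (Ccl2, Il21, the junction probe of Il33, the dimmer Cxcl11 probe and the Il15 probe) and 4 kept it (Ccl6, both Il34 probes and the Mif probe that was at it). Of all 46 probes 19 turned their sign, and 5 probes newly reached the threshold, all lower in labelled db/m. Of these, Il17d turned its sign, at -0.58 with an unadjusted p of 0.0312 by limma. The others were Tnfsf12 (-2.22), the second Il33 probe (-0.77), the other Mif probe (-0.71) and Ccl19 (-0.55), with unadjusted limma p-values of 8.98e-05, 0.0362, 0.0454 and 0.0497. The slide comparison is 1 array against 1, and the other slides held 1 group each. Shares of all tested probes are not given for the fit with slide as a block, so its counts are no result about the ligands.

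**Figure D4:**
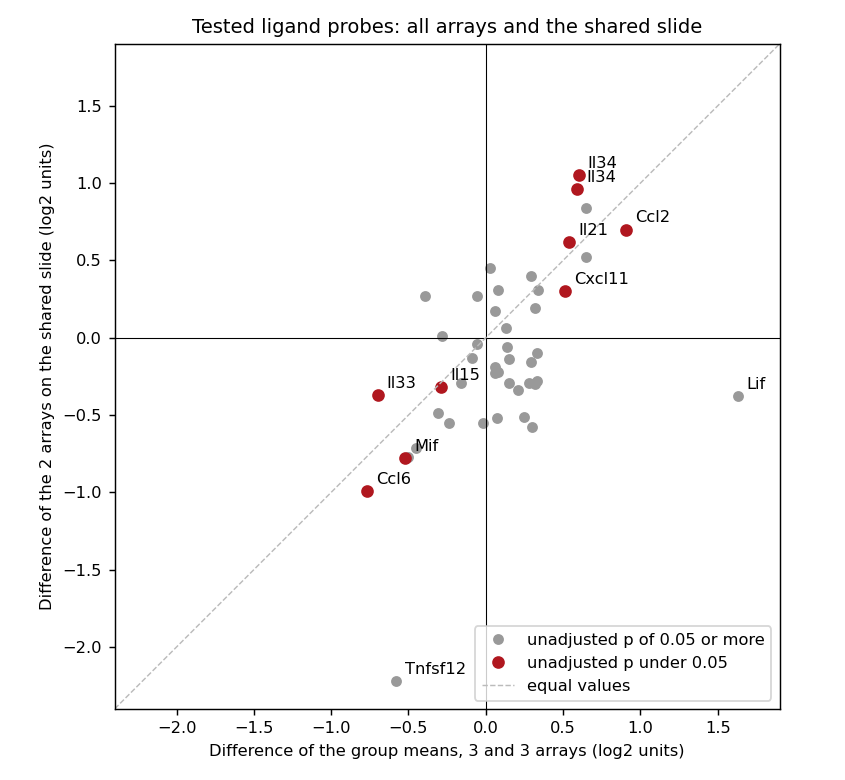
Difference of each of the 46 tested ligand probes between group means (horizontal axis) and between the 2 arrays on the shared slide (vertical axis), both in log2 units and not independent, since the means include those arrays. The probes with an unadjusted p under 0.05 (red) lie on the same side of 0 on both axes, while Lif, at 1.63 and -0.38, does not.

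The receptors of these ligands were read by the same arrays, and the counts of each list stand beside 6.67% of all tested genes higher and 9.18% lower at the unadjusted threshold. Of 23 chemokine receptors 8 were tested, and 1 was higher at the unadjusted threshold and none lower. It was Cx3cr1, the fractalkine receptor of monocytes and macrophages, which read 0.09, 0.01 and 0.28 in labelled db/m and -0.35, -0.26 and -0.17 in labelled db/db, without overlap. Its difference was 0.39 ± 0.12 (unadjusted p = 0.0141, adjusted p = 0.24), and it is also 1 of the leukocyte markers above. Of 44 receptor subunits of interleukins, colony-stimulating factors and Lif, 30 were tested, 3 were higher and 1 lower (Il5ra). The list also held Cd74, described below with Mif, and the antagonists Il1rn and Il22ra2, which are not counted here. Il2ra, the high-affinity subunit for Il2, read -1.07, -0.71 and -0.71 against -2.04, -2.32 and -1.35, without overlap. Its difference of 1.08 ± 0.26 (unadjusted p = 0.00457, adjusted p = 0.24) was the largest among the receptors. Csf2ra differed by 0.75 ± 0.21, Il3ra by 0.47 ± 0.17 and Il5ra by -0.83 ± 0.34, on a probe with a 16-base run in 14 promoter windows, while Il2 and Il3 were not tested and Il5 and Csf2 were on no array well above background.

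Of 27 TNF receptor superfamily genes 16 were tested, 2 were higher and none lower. Tnfrsf10b, a receptor of Tnfsf10, read -1.52, -1.14 and -1.13 in labelled db/m and -2.04, -1.95 and -1.78 in labelled db/db, without overlap (difference 0.66 ± 0.15, unadjusted p = 0.00306, adjusted p = 0.24). Tnfrsf22 differed by 0.37 ± 0.13. Across the 3 receptor lists the median differences were -0.01, 0.10 and 0.12, against -0.02 for all tested genes.

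Set beside their receptors, the ligands did not share 1 pattern. These receptors, other than Cx3cr1 and Tnfrsf10b, were chosen after their values were seen. Csf1r, the receptor of Il34 and Csf1, read 4.01, 3.25 and 3.26 in labelled db/m and 2.97, 2.87 and 3.13 in labelled db/db, without overlap (difference 0.51 ± 0.22, unadjusted p = 0.0568). Like Cx3cr1, it is also among the leukocyte and myeloid markers above. Cd74, a receptor of Mif and also the invariant chain of MHC class II, differed by -0.45 ± 0.14 (unadjusted p = 0.0146), beside -0.52 and -0.45 for the Mif probes. Ccr2, the receptor of Ccl2, differed by -0.02 ± 0.35, with a 95% confidence interval from -0.86 to 0.82. Cxcr6, the receptor of Cxcl16, differed by 0.19 ± 0.12 (unadjusted p = 0.15). Il21r differed by 0.31 ± 0.17, Il15ra by -0.37 ± 0.25 (on a probe with such a run in 148 windows) and Tnfrsf1a by 0.18 ± 0.13, and none of them reached the unadjusted threshold.

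**Figure D5:**
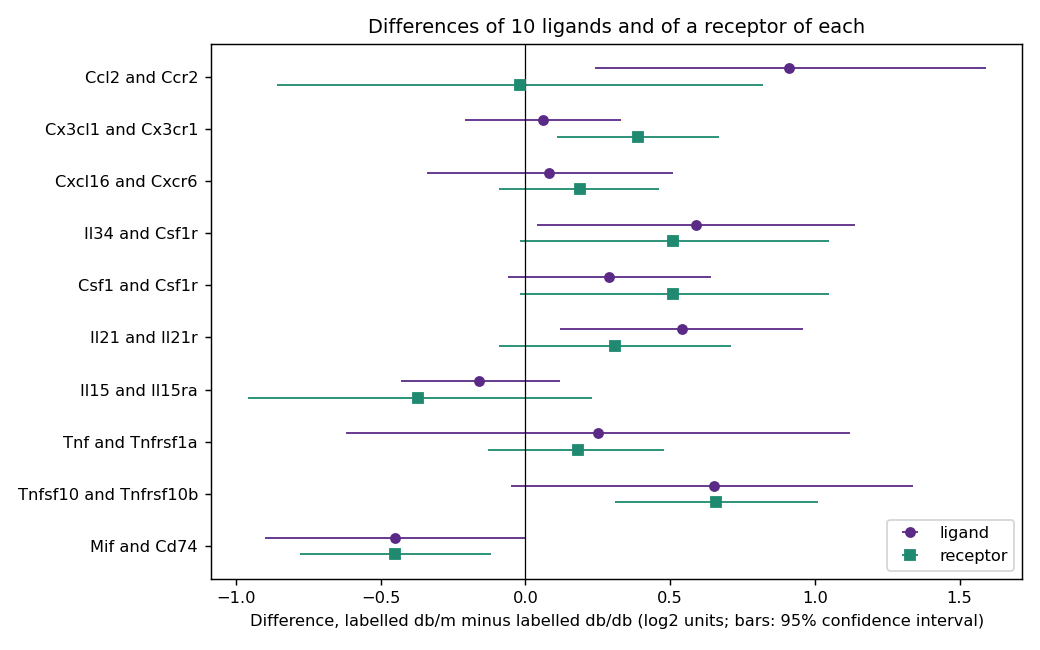
Differences (log2 units, with 95% confidence intervals) of 10 ligands and of a receptor of each. Tnfsf10 and Tnfrsf10b (0.65 and 0.66), Il34 and Csf1r (0.59 and 0.51) and Mif and Cd74 (-0.45 for both) lie close together, and Ccl2 and Ccr2 (0.91 and -0.02) lie apart. Csf1r and Cx3cr1 are also among the leukocyte and myeloid markers.

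Of 29 genes that respond to NF-kB or JAK-STAT signalling 25 were tested, with 1 higher and 1 lower (against 6.67% and 9.18% of all tested genes) and a median difference of 0.04. Socs1, a feedback inhibitor of cytokine receptors, was the higher one (0.35 ± 0.14, unadjusted p = 0.0366). Birc3, an inhibitor of cell death induced by NF-kB, was the lower one (-0.43 ± 0.14, unadjusted p = 0.0194). The acute-phase gene Saa3 and the endothelial selectin Sele were on no array well above background. Of 4 secreted antagonists on the array 1 was tested, with a difference of -0.07, and Il1rn, Il22ra2 and Tnfrsf11b were on no array well above background. Of 21 further ligands outside the symbol rule, such as lymphotoxins and oncostatin M, 14 were tested and 1 was higher, Ccl27a, a chemokine of epithelia (0.27 ± 0.11, unadjusted p = 0.0386). Ifng, Fasl and Cd40lg, products of activated lymphocytes, were on no array well above background.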

How the data were processed

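Total RNA of renal cortex was labelled with Cy3 and hybridised to 6 arrays, 3 per group. The authors deposited for each array the spot intensity from Agilent Feature Extraction 10.7.1.1, background-subtracted and without normalization between arrays, and a matrix of log2 values (Pearson r of 0.99833 to 0.99996 with the log2 intensity of each array across probes). The file headers name genome build mm9.

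Control spots and 135 probes flagged as outliers on an array were left out, spots of a probe were averaged on the log2 scale, and each array was scaled by subtracting its 75th percentile. No probe was saturated. Groups were compared with limma 3.58.1 in R 4.3.3 (lmFit, eBayes) over 29890 probes with Benjamini-Hochberg adjustment. Array signal has no read depth, and the number of arrays limits the precision. On simulated data with known changes, larger than any ligand difference here and drawn without slide effects, the script recovered their sign. Recovery of differences of the size found here was not tested.

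Named ligands were Cxcl16, those whose brightest tested probe had an unadjusted p under 0.05, those with a probe well above background on all 3 arrays of 1 group and none of the other, the 10 brightest, and 8 known from diabetic or injured kidney (Ccl2, Ccl5, Cxcl10, Il1b, Il6, Il18, Tnf and Tnfsf13b). Of each further list, up to 4 genes at the unadjusted threshold were named. Members, lists and receptor pairs were chosen with earlier results of these data known. Of the 125 ligand probes, 108 were matched to RefSeq by accession with no symbol changed. Alternatives were other scaling, background correction, filters, tests, blocks and leaving out each array.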

Additional observations from a re-analysis of the deposited data

How the results depend on the processing

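The 5 ligand probes higher and 4 lower at the unadjusted threshold came from 3 arrays per group. The counts below stand without the share of all tested probes in the same alternative. They show how the calls move and are no result about the ligands. The higher count was 3 under quantile normalization, with the deposited matrix and with trended and robust variance. It was 2 under median centring, with no filter on dim probes and with slide as a block, and 1 by the test outside limma. The lower count was 9 under median centring, 7 with slide as a block and 2 by the test outside limma. By the test outside limma the higher probe was Il21, and the lower ones were the junction probe of Il33 and the Il15 probe. Il21 and the junction probe were tested only through the group where they are high, so those calls are no independent test. Leaving out each array in turn, the higher count ran from 1 (without labelled db/db replicate 2) to 11 (without labelled db/m replicate 2) and the lower count from 2 to 6. Each of these fits drew the filter anew on the arrays left, so the set of probes tested could differ from the main one. Their counts are therefore not directly comparable with the main counts. The median difference, 0.107, was -0.08 under median centring, -0.086 with no filter (125 probes, 79 of them dim) and -0.177 with slide as a block, and ran from 0.044 to 0.22 without each array. No ligand probe passed the adjusted threshold in any of these 17 alternatives, where their lowest adjusted p was from 0.0501 to 0.619, although 222 of all probes did after removal of replicate 2 of labelled db/m, and 129 after removal of replicate 3 of labelled db/db. Leaving out each array was added for the count of probes above background after the data were seen, and the difference in that count then ran from 0.5 to 5.5.

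Ccl2 kept its side of the unadjusted threshold in 15 of 17 alternatives, the junction probe of Il33 in 15 of 16, Ccl6 in 14 of 17, the Mif probe in 13 of 17, the first and second Il34 probes in 10 and 5 of 17, the dimmer Cxcl11 probe in 9 of 17, the Il15 probe in 8 of 17 and Il21 in 6 of 16. The junction probe of Il33 and Il21 were tested only through the group where they are high, so their counts do not show stability. Of the 46 tested probes, 11 turned their sign under median centring and 19 with slide as a block. Among the ligands named by rule that were not at the threshold, these turned: under median centring Ccl25 (-0.06), Cx3cl1 (-0.13), Cxcl11 (-0.13), Cxcl12 (-0.15) and Cxcl16 (-0.1); with slide as a block Ccl5 (-0.29), Cxcl10 (-0.16), Cxcl11 (-0.19), Tnf (-0.51) and Tnfsf13b (-0.28); with the mean over tested probes Cxcl12 (-0.01) and Cxcl16 (-0.1). Without each array in turn Ccl5 ran from -0.02 to 0.48, Cx3cl1 from -0.01 to 0.11, Cxcl11 from -0.05 to 0.15, Cxcl12 from -0.11 to 0.31 and Cxcl16 from -0.05 to 0.26. Median centring moved the differences of all probes by the same amount, so the turns under it follow from that shift. The cause of the other turns was not tested.

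Replicate numbers were shared by the labels of both groups, but same-numbered arrays deviated together unevenly (r of 0.354, 0.148 and 0.0461 across probes), so the numbers were not taken as pairs. With a replicate block 5 ligand probes were higher and 6 lower, again without the share of all tested probes.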
